A study of Homo sapiens with 16 samples.

Results

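The 10 genes described here encode the 3 chains of fibrinogen (FGA, FGB and FGG), 3 clotting factors (F2, F5 and F10), 3 anticoagulant proteins (SERPINC1, SERPIND1 and PROC) and plasminogen (PLG). They were taken by symbol, 1 row each, from the 60623 genes listed for every library, of which 20747 had at least 1 read. Each was followed through all 8 groups of a gut-liver chip study, with 2 libraries in each group. The groups crossed a cell line (HepG2, a human hepatocellular carcinoma line, or Caco-2, a human colorectal adenocarcinoma line with enterocyte features) with a culture (mono-culture, or co-culture with the other line in a microfluidic chip) and a treatment (control without added fatty acid, or 1 mM free fatty acids, FFA). The FFA were palmitic and oleic acid, with more oleic than palmitic acid, and both lines were maintained in the device in supplemented Dulbecco's medium. Per the study's methods, cells were starved without serum before the FFA, which were then given in serum-free medium with albumin. Per the labels' treatment protocol, samples were taken after 1 day. The study's text also describes a longer exposure, which is the one in its main mRNA sequencing figures. Every sample title begins with LTC, which the labels do not explain, so the length of exposure was taken as unsettled. Each line stands for 1 established tumour-derived culture, and the study's methods describe its mRNA sequencing as repeated in independent experiments. The labels do not say which libraries came from which experiment or chip, so p values measure only the spread between these libraries, part of which may be technical. RNA was amplified as cDNA and read on a Nanopore device, and the values are read counts scaled to one common total per library (CPM), which carry no correction for transcript length. Levels are therefore compared between libraries and not between genes.

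Blood clotting runs as a cascade of proteases made mostly by hepatocytes and secreted into plasma. Factor X, with factor V as its cofactor, converts prothrombin into thrombin, and thrombin cuts soluble fibrinogen so that it polymerises into fibrin. Antithrombin (SERPINC1), heparin cofactor II (SERPIND1) and activated protein C (PROC) restrain thrombin generation and action, and plasmin, the active form of plasminogen, dissolves the clot. Fibrinogen is also a classical acute-phase protein, whose genes respond to interleukin-6 and glucocorticoids in liver cells.

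Depth differed 33.39-fold between libraries, from 49634 to 1657430 reads, and 1 read stood for 0.603 to 20.1 CPM. The shallowest libraries were both of HepG2 in co-culture with FFA, with 147096 reads in replicate 1 and 49634 reads in replicate 2. Values of the rarer genes in that group therefore rest on few reads. The comparison of lines averaged over conditions is also given without both libraries. Comparisons within HepG2 that use the group are given only with 1 library left out at a time. Every HepG2 FFA library was shallower than every HepG2 control library, at 49634 to 424538 against 430815 to 1657430 reads. The part of depth in differences between FFA and control was not tested. Of 10 hepatocyte markers, 6 (ALB, AFP, APOA2, APOH, AHSG and TF) exceeded the highest Caco-2 library in each HepG2 library. VTN went the other way, at 355 to 685 CPM in HepG2 and 927 to 1441 CPM in Caco-2. The lines overlapped for the rest. The medians of TTR (798 against 990 CPM) and APOC3 (607 against 1079 CPM) were lower in HepG2, and that of RBP4 (1144 against 833 CPM) was higher. The summed level of all 10 was 30913 to 53431 CPM in HepG2 and 5872 to 8354 CPM in Caco-2, so Caco-2 cells carried part of the hepatocyte list themselves. Of 10 enterocyte markers, 3 (CDH17, MUC13 and CEACAM5) were higher in every Caco-2 library, and CDX1 had no read in Caco-2. Without VIL1, which HepG2 also expressed, the other 9 summed to 48.1 to 73.9 CPM in Caco-2 and 0 to 2.36 CPM in HepG2. In bulk RNA of this kind, fewer cells of a type and less RNA per cell cannot be told apart.

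FGB, FGA and FGG lie side by side within 49957 bases of chromosome 4 (154563011 to 154612967, GRCh38, GENCODE 44), with FGB on the plus strand and FGA (154583126 to 154590742) and FGG (154604134 to 154612967) on the minus strand. The 250 bases before the RefSeq start of FGA (chr4:154590743-154590992, minus strand) and FGB (chr4:154562730-154562979, plus strand) are shown because these 2 genes gave the largest fibrinogen differences with FFA described below. Capitals mark matches, on either strand, to 3 short motifs searched by their letters, namely GTTAAT (the core of an HNF1 site), TTNNGNAA (C/EBP-like) and CTGGGAA (an interleukin-6 response element). No 2 marked matches overlap.
FGA: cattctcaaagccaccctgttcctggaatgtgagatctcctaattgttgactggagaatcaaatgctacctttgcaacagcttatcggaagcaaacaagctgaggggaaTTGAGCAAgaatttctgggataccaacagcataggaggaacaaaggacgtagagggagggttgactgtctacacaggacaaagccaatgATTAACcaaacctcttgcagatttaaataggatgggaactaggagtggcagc
FGB: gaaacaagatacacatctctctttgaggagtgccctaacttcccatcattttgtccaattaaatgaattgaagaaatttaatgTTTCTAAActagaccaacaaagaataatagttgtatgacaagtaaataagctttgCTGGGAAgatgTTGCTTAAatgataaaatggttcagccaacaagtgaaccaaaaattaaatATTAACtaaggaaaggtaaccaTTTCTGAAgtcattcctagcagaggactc
Both sequences are from RefSeq on GRCh38.p14 and hold the HNF1 core near the start, at positions -52 to -47 in FGA and -51 to -46 in FGB, counted back from the RefSeq start. FGB also held the interleukin-6 element at -112 to -106, a few bases from a C/EBP-like match at -101 to -94. RefSeq windows were matched for 9 of the 10 genes, the exception being SERPINC1. The HNF1 core was found in FGA, FGB and F2, the C/EBP-like motif in FGA, FGB, FGG and SERPIND1, and the interleukin-6 element in FGB, FGG, F10 and PLG. Among all 35116 windows of this length, the HNF1 core was present in 6.23%, the C/EBP-like motif in 33.2% and the interleukin-6 element in 9.15%. A 4th motif, CAAAGTNCA (HNF4-like), was present in 0.94% of windows and, of these genes, in SERPIND1 alone. A match is a string of letters and no evidence that a factor binds there.

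The comparison of lines asks how far the clotting programme belongs to the liver line of the chip. All 10 genes were higher in HepG2 than in Caco-2, and in each of them the lowest HepG2 library lay above the highest Caco-2 library. Such a separation in the same direction was found for 4.3% of the 17544 genes tested. In the limma fit of all 16 libraries, averaged over the 4 conditions, all 10 passed an adjusted p of 0.05 in the HepG2 direction, as did 12.5% of genes tested. The median difference of all genes in that contrast was -0.16 on the log2 scale.

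**Figure D1:**
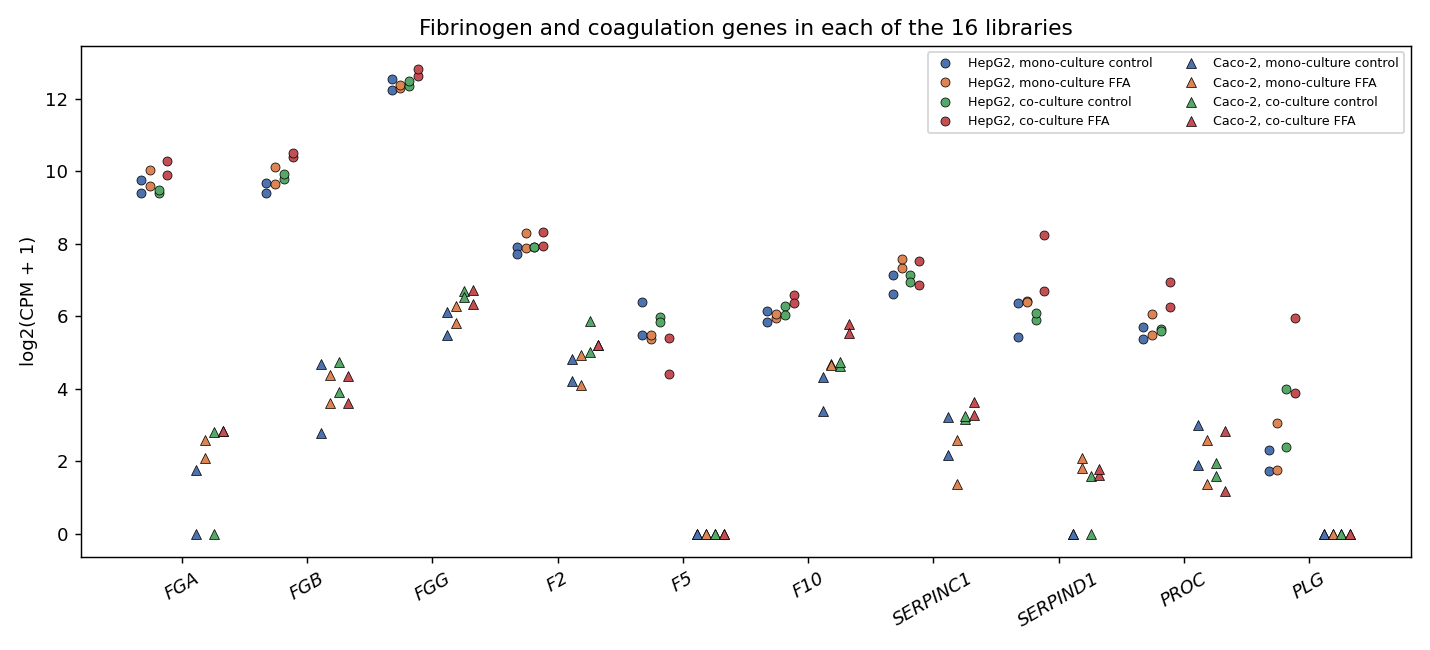
Level of the 10 genes in each of the 16 libraries on a log2(CPM + 1) scale. Circles are HepG2 libraries, triangles are Caco-2 libraries, and colours give culture and treatment. For every gene the circles lie above the triangles, and F5 and PLG sit at 0 in all 8 Caco-2 libraries.

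FGA, the alpha chain, ran from 672 to 1249 CPM in HepG2 (median 818) and from 0 to 6.16 CPM in Caco-2 (median 4.08), with 20 reads in all Caco-2 libraries together. FGB, the beta chain, ran from 673 to 1451 CPM in HepG2 (median 921) and from 5.88 to 25.8 CPM in Caco-2 (median 16.8). FGG, the gamma chain, ran from 4819.9 to 7213 CPM in HepG2 (median 5538) and from 43.5 to 105 CPM in Caco-2 (median 78.4). The 3 chains thus had a few percent or less of their HepG2 level in Caco-2, and all 3 were nonetheless read there. The averaged log2 difference was 7.87 for FGA (SE 0.35, adjusted p = 6.21e-10), 5.92 for FGB (SE 0.25, adjusted p = 3.54e-10) and 6.23 for FGG (SE 0.11, adjusted p = 7.51e-14).

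Among the clotting factors, F2 (prothrombin, chromosome 11, 46719196 to 46739506) ran from 208 to 319.5 CPM in HepG2 and from 16.1 to 57.5 CPM in Caco-2, a log2 difference of 3.06 (SE 0.18, adjusted p = 9.63e-09). F10 (chromosome 13, 113122799 to 113149529) differed least, with 55.7 to 95.2 CPM in HepG2 and 9.40 to 54.4 CPM in Caco-2. Its ranges all but met, and the log2 difference was 1.44 (SE 0.17, adjusted p = 1.70e-05). F5 (chromosome 1, 169511951 to 169586588) had 272 reads in the HepG2 libraries, at 20.2 to 83.6 CPM, and none in Caco-2. Taking 3 reads over the 8 Caco-2 libraries together as the floor (0.614 CPM), F5 was at least 89.5-fold higher in HepG2. Such floors, and the Wilson intervals of read shares below, cover counting error only, because amplified reads without molecular identifiers are not independent molecules. The intervals of log2 differences come from the limma fits and the spread between libraries.

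The anticoagulant genes showed the same order. SERPINC1 (chromosome 1, 173903800 to 173917327) had 96.8 to 189 CPM in HepG2 against 1.60 to 11.3 CPM in Caco-2 (log2 difference 4.31, SE 0.23, adjusted p = 5.27e-09). SERPIND1 (chromosome 22, 20774113 to 20787720) had 42.0 to 302 CPM against 0 to 3.22 CPM, with 8 reads in all of Caco-2 (log2 difference 5.33, SE 0.31, adjusted p = 1.29e-08). PROC (chromosome 2, 127418427 to 127429242), the zymogen of activated protein C, had 40.1 to 121 CPM against 1.24 to 7.05 CPM (log2 difference 3.83, SE 0.32, adjusted p = 4.41e-07). Per library these Caco-2 levels amount to 1 to 11 reads where the gene was seen, so only their order of magnitude can be read. PLG (chromosome 6, 160702194 to 160754097) was rare even in HepG2, with 34 reads at 2.32 to 60.4 CPM, and had no read in Caco-2, which makes it at least 11.2-fold higher in HepG2. PLG has close paralogs that can share reads, and its value is uncertain for that reason too.

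The call for each gene was then read condition by condition. In mono-culture without FFA, 9 of the 10 passed in the HepG2 direction (4.78% of all genes did), and in mono-culture with FFA 9 of 10 (5.73%), PLG being the exception in both. In co-culture without FFA all 10 passed (3.98%). In co-culture with FFA 9 of 10 passed (6.68%), and F10 did not (log2 difference 0.80, SE 0.34, adjusted p = 0.127). With both shallow HepG2 libraries left out, an alternative chosen after the read totals were seen, all 10 still passed the contrast averaged over the other 3 conditions. No share of all genes stands beside that count.

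**Figure D2:**
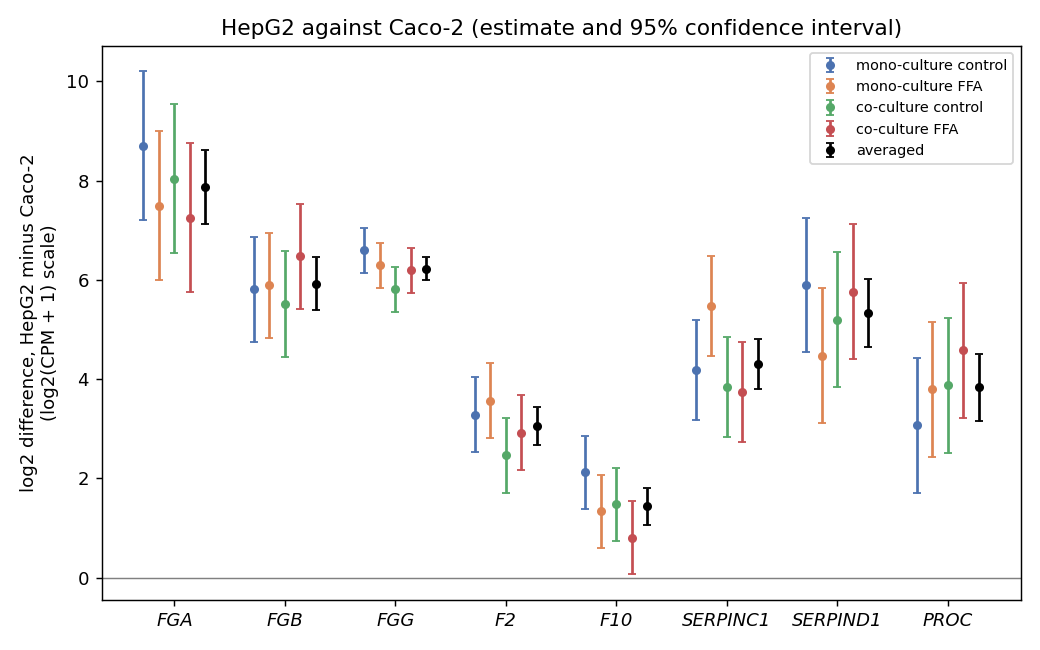
HepG2 minus Caco-2 on the log2(CPM + 1) scale for the 8 genes read in both lines, as estimate and 95% confidence interval from the joint limma fit, for each condition (colours) and averaged (black). The averaged estimates run from 1.44 (F10) to 7.87 (FGA), and the F10 estimate is smallest in co-culture with FFA, at 0.80. F5 and PLG, with no Caco-2 read, are left out.

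Reads of the 3 fibrinogen chains were also set against each other within each library, a ratio that does not depend on the library's scaling. FGG supplied 76.8% of the 34531 fibrinogen reads of HepG2 (95% Wilson interval 76.4 to 77.3), FGB 12.5% and FGA 10.6%. In Caco-2, FGG supplied 79.9% of 473 fibrinogen reads (76.1 to 83.3), FGB 15.9% (12.8 to 19.4) and FGA 4.23% (2.75 to 6.44). The FGA share in Caco-2, at 0 to 6.33% per library, lay below that of every HepG2 library, at 9.64 to 14.0%. These Caco-2 shares rest on at most 6 FGA reads per library. Their 95% intervals reached into that HepG2 range in every Caco-2 library except co-culture control replicate 2 (0 to 9.41%). Chain transcripts differ in length, so these shares describe reads and not molecules.

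Within HepG2 the FGG share lay between 77.1% and 78.1% in all 4 control libraries and between 71.2% and 76.1% in all 4 FFA libraries. The groups did not overlap, in mono-culture (78.0% and 78.1% against 76.1% and 71.2%) or in co-culture (77.1% and 77.4% against 73.5% and 72.8%). The 95% intervals of the closest libraries did overlap. They were 76.3 to 77.9% in co-culture control replicate 1 and 74.5 to 77.7% in mono-culture FFA replicate 1. All 4 FFA libraries also held fewer reads than all 4 controls. No share of other gene ratios that separate this way stands beside it. FGB made up 10.7 to 12.97% of fibrinogen reads in control libraries and 12.2 to 15.5% in FFA libraries, and FGA 9.64 to 11.2% and 10.96 to 14.0%, both with overlapping ranges. Within each culture the FFA libraries lay above the controls for both chains. FGB made up 10.7% and 10.9% against 12.2% and 14.8% in mono-culture and 12.97% and 12.94% against 15.5% and 14.6% in co-culture. FGA made up 11.2% and 10.96% against 11.7% and 14.0% in mono-culture and 9.90% and 9.64% against 10.96% and 12.6% in co-culture. The 3 shares of a library sum to the whole, so they are not independent. This comparison was chosen after its values were seen and was not tested.

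The next question was whether FFA or co-culture changed these genes in the liver line. None of the 10 passed in any of 8 limma comparisons over the 8 HepG2 libraries (14430 genes tested). These comparisons share libraries, controls included, and are not independent. Very few genes passed at all, namely 0.0762% of genes with FFA averaged over culture and 0% in FFA in mono-culture, FFA in co-culture, co-culture without FFA, co-culture with FFA, co-culture averaged over treatment, the interaction and the F-test over 4 groups. At an unadjusted p under 0.05, 5 of the 10 passed for FFA in co-culture (15.9% of all genes did) and 5 for FFA averaged over culture (13.8%). The corresponding numbers were 3 for co-culture with FFA (14.7%), 3 for co-culture averaged over treatment (7.72%), 4 in the F-test (12.2%), 1 for the interaction (6.94%), and 0 for FFA in mono-culture (6.26%) and for co-culture without FFA (2.61%). On the recovered reads, edgeR called 1 of the 10, F5, with FFA averaged over culture, where it called 4.37% of all genes, and none in the other 7 comparisons. DESeq2 called none in all 8, although it called 344 genes of any kind with FFA averaged over culture.

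FGA stood at 863 and 676 CPM in the mono-culture control libraries of HepG2, at 773 and 1048 CPM in mono-culture with FFA, at 672 and 717 CPM in co-culture control and at 952 and 1249 CPM in co-culture with FFA. In co-culture both FFA libraries lay above both controls, and in mono-culture the groups overlapped. The log2 difference of FFA in co-culture was 0.65 (95% interval 0.20 to 1.10, adjusted p = 0.223).

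FGB stood at 822 and 673 CPM in mono-culture control, at 806 and 1106 CPM in mono-culture with FFA, at 880.2 and 962 CPM in co-culture control and at 1346 and 1451 CPM in co-culture with FFA. Its highest values were those of the 2 co-culture FFA libraries, and co-culture lay above mono-culture both without and with FFA. The log2 difference was 0.60 for FFA in co-culture (95% interval 0.22 to 0.98, adjusted p = 0.200), 0.47 for FFA averaged over culture (0.20 to 0.74, adjusted p = 0.189) and 0.44 for co-culture averaged over treatment (0.17 to 0.71, adjusted p = 0.557).

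FGG stood at 5991 and 4819.9 CPM in mono-culture control, at 5036 and 5319 CPM in mono-culture with FFA, at 5233 and 5758 CPM in co-culture control and at 6384 and 7213 CPM in co-culture with FFA. The 2 co-culture FFA libraries were the highest of the 8, and the other 6 overlapped freely. FFA in co-culture gave a log2 difference of 0.31 (95% interval 0.05 to 0.56, adjusted p = 0.269), and FFA averaged over culture 0.13 (-0.05 to 0.30, adjusted p = 0.519).

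**Figure D3:**
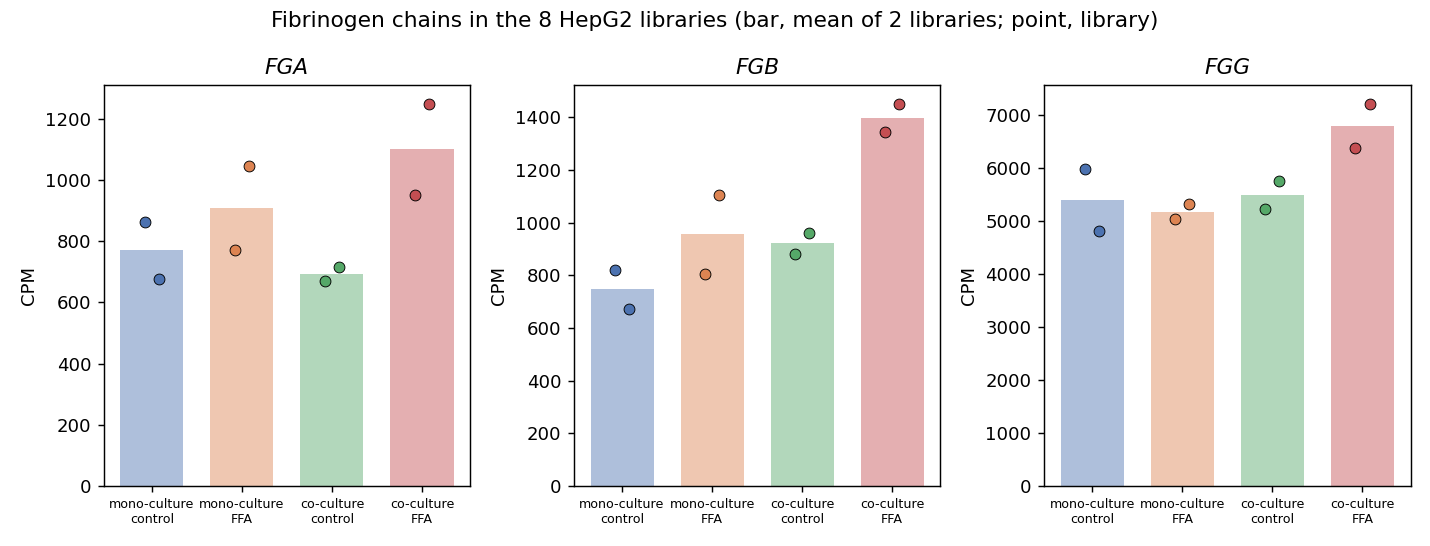
FGA, FGB and FGG in the 8 HepG2 libraries, in CPM. Bars are means of 2 libraries and points are the libraries. The co-culture FFA libraries are the highest for FGB (1346 and 1451 CPM) and FGG (6384 and 7213 CPM), and no difference passed the adjusted threshold.

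These fibrinogen differences depended on the processing and on 1 library. The median gene moved by -0.26 on the log2 scale for FFA in co-culture, so relative to that median the differences were 0.92 for FGA, 0.87 for FGB and 0.57 for FGG. That median includes genes unread in the FFA libraries, which detected 8536 and 5900 genes against 13973 and 12570 in the co-culture controls. The part of unread genes in the median was not tested, so it is no scale for well-read genes. In edgeR, which differs in its scaling (TMM), count model and prior count together, the same contrast gave -0.05 for FGA, -0.07 for FGB and -0.38 for FGG. On the limma scale, median-ratio scaling turned FGG (-0.11) but not FGA or FGB. With quantile normalization, FGB (0.71, adjusted p = 0.036) and FGG (0.52, adjusted p = 0.0141) passed for FFA in co-culture, where 0.707% of all genes did, and also for FFA averaged over culture (0.534%), and 2 of the 10 passed in the F-test (0.783%). Without co-culture FFA replicate 1, FGA (0.85, adjusted p = 0.0452), F5, SERPIND1 and PROC passed for FFA in co-culture, where 18% of all genes passed, and the single FFA library then left is the shallowest of the series and is assumed to vary like the other groups. Without the same library 2 of the 10 passed for co-culture with FFA (17.6% of all genes passed) and 1 in the F-test (9.77%). Over all alternatives for FFA in co-culture the adjusted p ran from 0.0452 to 0.980 for FGA, from 0.036 to 0.953 for FGB and from 0.0141 to 0.735 for FGG. Summed hepatocyte markers moved in the same group, with 39559 to 53431 CPM in the 2 co-culture FFA libraries against 30913 to 40438 CPM in the 4 control libraries, and TF, the transferrin gene, with 1808 to 3405 CPM against 806 to 1158 CPM. VIL1, the villin gene of the enterocyte list, also stood higher there, at 61.2 and 100.7 CPM (9 and 5 reads) against 20.9 to 24.4 CPM in the 4 controls. The other 9 enterocyte markers had no read in these 2 libraries, but they summed to only 48.1 to 73.9 CPM in Caco-2 itself. Since 3 reads here stand for 20.4 and 60.4 CPM, these markers could not measure RNA of the other line at this depth. Other genes that separate the lines were not used for this. The part of these markers and of depth in the fibrinogen values was not tested.

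Among the clotting factors of HepG2, F5 went the other way from the fibrinogen chains. It stood at 83.6 and 43.99 CPM in mono-culture control, at 40.0 and 43.7 CPM in mono-culture with FFA, at 61.5 and 56.0 CPM in co-culture control and at 40.8 and 20.2 CPM in co-culture with FFA. All 4 FFA libraries lay below all 4 controls, which was the case for 3.36% of the genes tested. The closest values were 43.7 CPM with FFA and 43.99 CPM without, and 1 read stood for 3.64 CPM in that FFA library. All 4 FFA libraries also held fewer reads than all 4 controls, and the part of depth was not tested. The lowest value, 20.2 CPM, was a single read. FFA averaged over culture gave a log2 difference of -0.77 in limma (95% interval -1.49 to -0.04, adjusted p = 0.344) and -1.06 in edgeR (adjusted p = 0.0235). Over all its alternatives the adjusted p ran from 0.0235 to 0.739. With every library thinned to the reads of the shallowest, F5 did not keep this direction (1.38, adjusted p = 0.739).

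F2 and F10 showed smaller differences. The HepG2 levels of F2 were 239 and 208 CPM in mono-culture control, 233 and 313 CPM in mono-culture with FFA, 238 and 241 CPM in co-culture control and 319.5 and 242 CPM in co-culture with FFA. F10 stood at 69.6 and 55.7 CPM, 61.2 and 65.5 CPM, 76.6 and 64.5 CPM, and 95.2 and 80.6 CPM in the same order. For FFA in co-culture the log2 difference was 0.21 for F2 (95% interval -0.27 to 0.70) and 0.31 for F10 (-0.32 to 0.95), and both signs turned under edgeR, DESeq2 and median-ratio scaling.

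SERPIND1 was the only one of the 10 with all 4 HepG2 FFA libraries above all 4 controls, which 4.16% of the genes tested also showed. Those 4 FFA libraries held fewer reads than the 4 controls, and the part of depth was not tested. Its levels were 81.2 and 42.0 CPM in mono-culture control, 84.8 and 83.7 CPM in mono-culture with FFA, 58.5 and 66.6 CPM in co-culture control and 102 and 302 CPM in co-culture with FFA. In the last group each library held 15 reads. The log2 difference was 1.00 for FFA averaged over culture (95% interval 0.18 to 1.81, adjusted p = 0.287) and 1.48 for FFA in co-culture (0.32 to 2.63, adjusted p = 0.255). Without co-culture FFA replicate 1, the averaged difference passed (1.39, adjusted p = 0.0233), as it did for 11.9% of all genes, and over its alternatives the adjusted p ran from 0.0233 to 0.510. The overlapping gene PI4KA on the opposite strand had 16 reads in HepG2, far fewer than the 327 of SERPIND1.

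PROC stood at 51.1 and 40.1 CPM in mono-culture control, 66.0 and 43.7 CPM in mono-culture with FFA, 49.5 and 47.6 CPM in co-culture control and 74.8 and 121 CPM in co-culture with FFA. The higher of the last values rests on 6 reads. FFA in co-culture gave 0.96 (95% interval 0.13 to 1.78, adjusted p = 0.283), and FFA averaged over culture 0.60 (0.02 to 1.18, adjusted p = 0.357). SERPINC1 ranged from 96.8 to 189 CPM with no order by FFA in co-culture, where 139 and 123 CPM without FFA stood against 116 and 181 CPM with it. PLG was seen with 1 to 14 reads per library, and its 60.4 CPM in co-culture FFA replicate 2 was 3 reads.

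**Figure D4:**
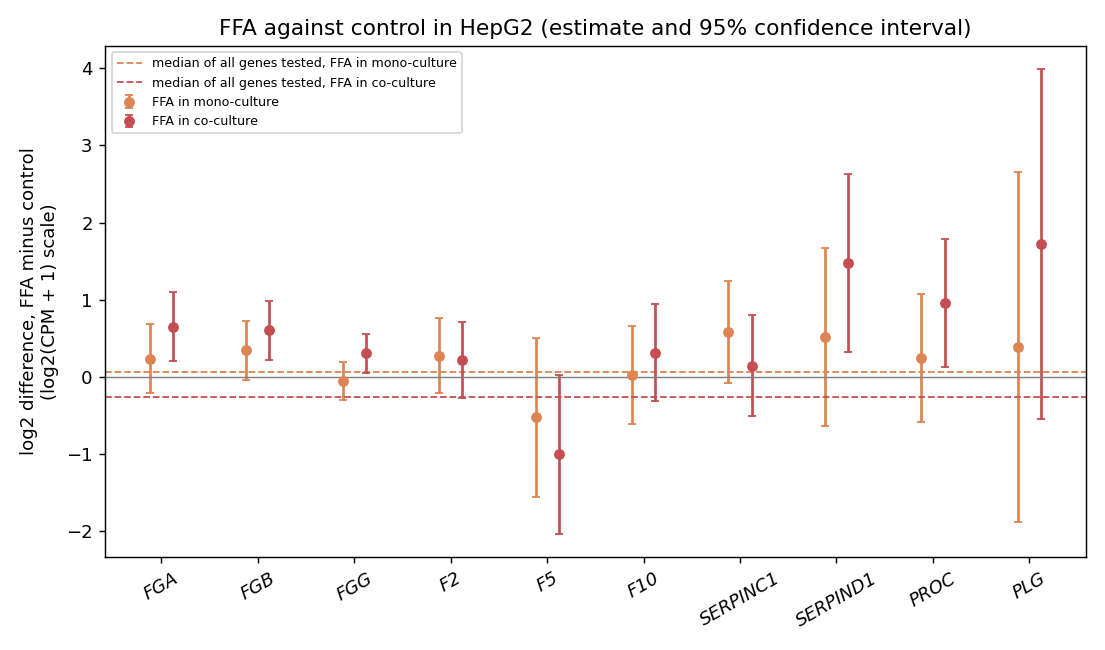
FFA minus control in HepG2 on the log2(CPM + 1) scale for the 10 genes, as estimate and 95% confidence interval (limma), in mono-culture and in co-culture. Dashed lines give the median of all genes tested, those unread in some libraries included, -0.26 for FFA in co-culture and 0.06 for FFA in mono-culture. In co-culture, FGA (0.65), FGB (0.60), FGG (0.31), SERPIND1 (1.48) and PROC (0.96) have intervals above 0 and F5 (-1.01) reaches down furthest; none passed after adjustment.

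Counted together for FFA in co-culture, 7 of the 10 genes (FGA, FGB, FGG, F2, F10, SERPIND1 and PROC) had both FFA libraries above both controls, where 17.4% of all genes did, and 1, F5, had both below, where 25.2% did. Those shares include low genes, and a gene unread in an FFA library cannot lie above the controls. No share of genes at like levels stands beside the count, so it cannot show how particular it is to these genes. The count holds on the CPM scale. The estimates of FGA, FGB, FGG, F2 and F10 were below 0 in edgeR, and those of FGG, F2 and F10 also in DESeq2 and with median-ratio scaling. These separations are of 2 against 2 libraries, and the 2 FFA libraries are the shallowest ones. The members share those libraries and are not independent of each other. In mono-culture the corresponding genes were SERPINC1 and SERPIND1 above, where 20.2% of all genes were, and F5 below, where 12.3% were.

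In Caco-2, 8 of the 10 genes were tested and F5 and PLG had no read. None of the 8 passed any of the 8 limma comparisons, with 15454 genes tested. The share of all genes that passed was 0.00647% for FFA in mono-culture, 0% for FFA in co-culture, for FFA averaged over culture and for the interaction, 0.0971% for co-culture without FFA and 0.0971% for co-culture with FFA, 0.453% for co-culture averaged over treatment and 0.155% in the F-test. At an unadjusted p under 0.05, 3 of the 8 passed for co-culture averaged over treatment (F10, F2 and FGG), where 11.8% of all genes did. In the other comparisons 0 to 2 passed, where 4.85% to 10.3% of all genes did. SERPIND1 stood at 0, 0, 1.98 and 0 CPM in the control libraries and 2.48, 3.22, 2.05 and 2.46 CPM in the FFA libraries, at most 2 reads in any of them. DESeq2 called none of the 8 in any comparison, and edgeR called F10 in the F-test alone, where it called 1.57% of all genes.

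FGG and F2 were higher in all 4 Caco-2 co-culture libraries than in all 4 mono-culture libraries, which was so for 4.25% of the genes tested. FGG stood at 68.4 and 43.5 CPM in mono-culture control, 76.7 and 54.6 CPM in mono-culture with FFA, 103 and 90.4 CPM in co-culture control and 105 and 80.1 CPM in co-culture with FFA. F2 stood at 27.4 and 17.6 CPM, 29.7 and 16.1 CPM, 57.5 and 31.1 CPM, and 35.9 and 35.7 CPM in the same order. The averaged log2 difference of co-culture was 0.65 for FGG (95% interval 0.23 to 1.07, adjusted p = 0.188) and 0.80 for F2 (0.18 to 1.42, adjusted p = 0.302), beside a median of 0.14 over all genes.

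F10 stood at 19.2 and 9.40 CPM in mono-culture control, 24.7 and 24.1 CPM in mono-culture with FFA, 23.8 and 25.4 CPM in co-culture control and 54.4 and 45.6 CPM in co-culture with FFA. The co-culture FFA libraries were the highest, and both mono-culture control libraries were the lowest. The averaged log2 difference was 0.91 for co-culture (95% interval 0.32 to 1.496, adjusted p = 0.189) and 0.90 for FFA (0.31 to 1.49, adjusted p = 0.829). Without mono-culture control replicate 1 both passed, co-culture at 1.15 (adjusted p = 0.0162, 4.97% of all genes passed) and FFA at 1.14 (adjusted p = 0.0172, 4.35%). F10 also passed without that library for co-culture without FFA (3.94% of all genes passed) and in the F-test (5.2%). The group then holds 1 library, which is assumed to vary like the other groups. Over the alternatives the adjusted p ran from 0.0162 to 0.363 for co-culture and from 0.0172 to 1.00 for FFA.

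RNA of the other line was looked for beside these values. TF, which Caco-2 mono-cultures held at 0 to 2.48 CPM, stood at 1.03 to 5.94 CPM in Caco-2 co-cultures, or 0.113 to 0.654% of its mean in HepG2 mono-culture controls. FGG in the same co-culture libraries was at 1.48 to 1.94% of its HepG2 level, F2 at 13.9 to 25.7% and F10 at 37.9 to 86.8%. The corresponding mono-culture values were 0 to 0.273% for TF, 0.804 to 1.42% for FGG, 7.19 to 13.3% for F2 and 15.0 to 39.5% for F10. TF had only 12 reads in all 8 Caco-2 libraries together, so its percentages are rough. A2M, the alpha-2-macroglobulin gene, had 12 reads there too, at 0 to 0.961% in co-culture and 0 to 1.28% in mono-culture. ALB was at 6.12 to 14.0% and 5.18 to 8.17% in the same order. The part of RNA of the other line in these values was not tested. Summed hepatocyte markers also stood higher in Caco-2 co-culture, at 7709 to 8354 CPM against 5872 to 6669 CPM in mono-culture.

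**Figure D5:**
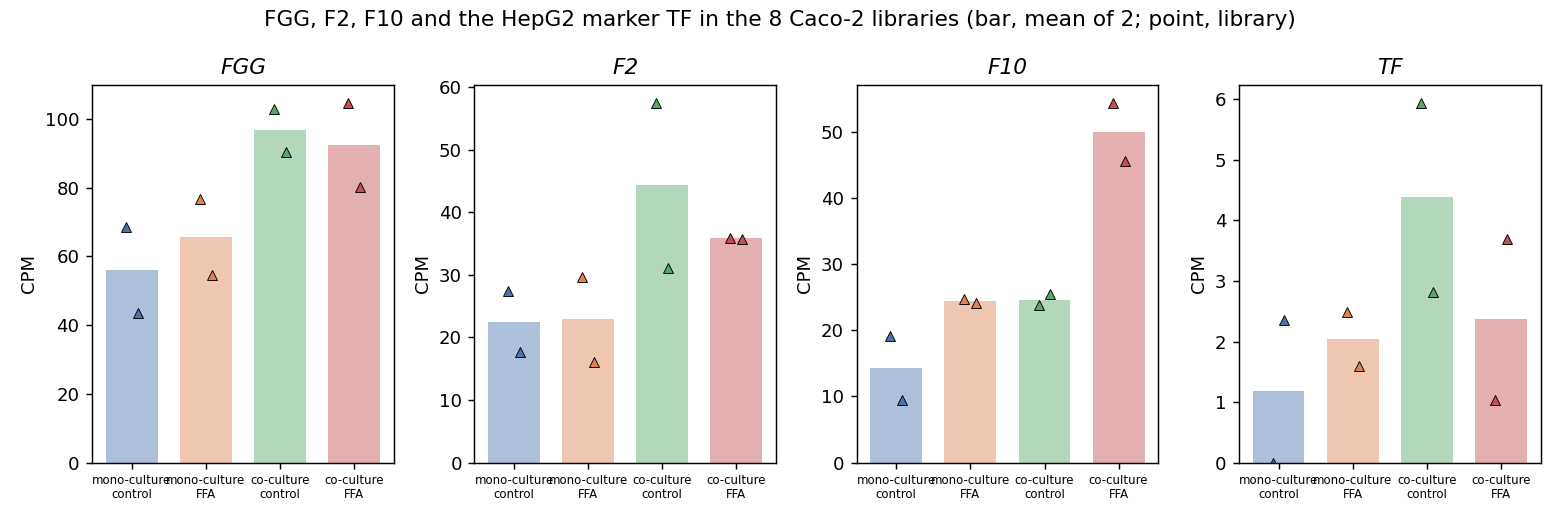
FGG, F2, F10 and the HepG2 marker TF in the 8 Caco-2 libraries, in CPM, with a separate axis for each gene. Bars are means of 2 libraries and points are the libraries. FGG (80.1 to 105 CPM) and F2 (31.1 to 57.5 CPM) are higher in all 4 co-culture libraries than in the mono-cultures, and TF stays at or below 5.94 CPM.

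Another 53 genes of clotting, its control and its regulation were read in the same fits, of which 42 were tested between the lines. Averaged over condition, 24 passed, 16 higher and 8 lower in HepG2, where 30.3% of all genes passed in either direction. Among 11 other clotting and contact factors, 6 were tested, 1 was higher and 3 were lower in HepG2. F9, F13A1, F13B and KLKB1 had no read in any library. KNG1, the kininogen gene, had 230 reads in Caco-2 and 1 in HepG2, at 20.2 CPM in co-culture FFA replicate 2. Of 8 other anticoagulant genes, 3 were higher and 1 was lower. TFPI, the inhibitor of the tissue factor pathway, stood at 544 to 706 CPM in HepG2 and 75.9 to 118 CPM in Caco-2 (log2 difference 2.61, adjusted p = 7.47e-11), SERPINA5, the protein C inhibitor, was higher by 4.76 (adjusted p = 1.77e-07), and PROCR, the endothelial protein C receptor, was lower in HepG2 (log2 difference -3.97, adjusted p = 1.74e-06).

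Of 9 other fibrinolysis genes, 5 were higher in HepG2 and 1 was lower. A2M, the broad protease inhibitor alpha-2-macroglobulin, differed by 7.89 (adjusted p = 5.27e-09), SERPINF2, the inhibitor of plasmin, by 3.89 (adjusted p = 1.97e-06), and CPB2, which slows fibrin breakdown, had 304 reads in HepG2 and none in Caco-2. Of 7 genes of the vitamin K cycle and of factor secretion, 4 were higher and 1 was lower. VKORC1, the reductase that warfarin blocks, stood at 488 to 585 CPM against 111 to 143 CPM (log2 difference 2.11, adjusted p = 1.12e-10), and LMAN1 (1.89) and MCFD2 (1.42), which together carry factors V and VIII out of the endoplasmic reticulum, were also higher. Of 8 genes of interleukin-6 and glucocorticoid signalling 1 was higher, and of 10 liver transcription factors 2 were higher and 2 lower, with NR1H4, the bile acid receptor FXR, higher by 2.98 (adjusted p = 0.000368). PROX1 was also higher (1.82, adjusted p = 0.0289), and HNF4A (-1.64, adjusted p = 0.0200) and CEBPA (-1.20, adjusted p = 0.0302) were lower. Libraries of the lines overlapped for PROX1, HNF4A and CEBPA. Within the lines, none of the genes of these lists passed in any of the 8 limma comparisons (37 tested in HepG2, 36 in Caco-2), with 0 to 7 at an unadjusted p under 0.05 per comparison in HepG2 and 0 to 5 in Caco-2. In HepG2, edgeR and DESeq2 each called at most 1 of them in a comparison, and in Caco-2 none.

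Over the 8 HepG2 libraries, the genes whose profile was most like the mean of the 3 fibrinogen chains were SUCLG1, TSPAN6, TRAPPC3, EPCAM and UQCRC2, out of 2021 genes whose mean reached 50 CPM. Likeness was the root mean square difference of the centred log2 values, which was 0.07 for SUCLG1, 0.07 for TSPAN6, 0.07 for TRAPPC3, 0.08 for EPCAM and 0.08 for UQCRC2, and 0.26 for a flat profile. Measured the same way, F10 (0.19) and F2 (0.22) were the closest of the other clotting genes here, and F5 (0.74) and PLG (1.13) the farthest. The libraries share their depth pattern, and this is a description over 8 libraries.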

How the data were processed

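The deposited values are named TPM. Within each library they were whole multiples of 1 step, which a length correction would break, so the unit taken for the deposited values is CPM, made by the authors from read counts, and reads were recovered from the step (100% of values whole within 0.1 reads plus a share of 0.0001 of the reads of that gene). Tests planned on the assumption of TPM were run unchanged. Per the labels' processing notes, minimap2 2.22 and GRCh38 were used. The study's methods name STAR and RSEM for mRNA sequencing without separating its sequencing platforms, and RSEM gives values corrected for length, which these are not. The counter behind these Nanopore values was therefore taken as unsettled. No library had the same values as another.

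Genes averaging 1 CPM or more in any fitted group were kept, and differences were fitted across them on log2(CPM + 1), with limma 3.58.1 in R 4.3.3 (trended prior variance, prior degrees of freedom 5.6 for the joint fit, 4.32 for HepG2 and 10.3 for Caco-2). Adjusted p values are Benjamini-Hochberg values over the genes kept, called at 0.05. Fold changes are on the log2(CPM + 1) scale, which understates the change of low genes. The joint fit held all 16 libraries, and the fits within a line its 8. The steps were tested on simulated data. Named besides the 10 genes were up to 3 genes per list with the largest line difference that passed without overlap of the lines, any list gene that passed within a line, and the 5 most alike genes. The other liver transcription factors that passed between the lines were named too. The genes and lists were chosen with earlier results of these data known. Alternatives were a pseudocount of 0.1, other filters (none, or 10 CPM), quantile and median-ratio scaling, a constant prior, a replicate block, edgeR 4.0.16 and DESeq2 1.42.0 on recovered reads, thinning, 2 groups only and leaving out libraries. Positions and overlaps came from GENCODE 44, which holds 99.46% of the listed identifiers.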

Additional observations from a re-analysis of the deposited data

Results flagged for a closer look

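SERPIND1 is listed because its 2 lines moved in opposite directions in 1 contrast. In co-culture with FFA against mono-culture with FFA, both HepG2 co-culture libraries lay above both mono-culture libraries (difference of means 118 CPM), and both Caco-2 co-culture libraries lay below (difference -0.595 CPM). The Caco-2 libraries held 1 to 2 SERPIND1 reads each, which is under the floor of 3 reads, and the difference between lines was not tested. No group had 4 or more libraries, so single libraries were not screened within groups.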

How the results depend on the processing

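The averaged line difference kept its direction for all 10 genes in every alternative, and each passed, except F5, F10 and PLG once all libraries were thinned to the shallowest. Thinning left 4, 3, 2 and 4 of the 10 in mono-culture control, mono-culture FFA, co-culture control and co-culture FFA, and 12 of the other listed genes in the averaged contrast against 24 before. With only the 2 groups of co-culture FFA in the fit, 2 passed. No share of all genes stands beside the counts of the line contrasts under these alternatives. They therefore do not show whether these genes lost calls more than other genes did. Within HepG2, quantile normalization called 2 of the 10 (FGB and FGG) for FFA in co-culture, the same 2 for FFA averaged over culture, and 2 in the F-test, and edgeR called 1 (F5) for FFA averaged over culture. In Caco-2, edgeR called 1 (F10) in the F-test. Of the other listed genes, quantile normalization, the constant prior and DESeq2 called 1 each in some HepG2 comparison and edgeR 2.

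For FFA in co-culture, edgeR gave -0.0456 for FGA, -0.0667 for FGB, -0.38 for FGG, -0.33 for F2 and -0.28 for F10. Median-ratio scaling gave -0.11 for FGG, -0.20 for F2 and -0.10 for F10, DESeq2 gave -0.11 for FGG, -0.0768 for F2 and -0.0206 for F10, and quantile normalization gave -0.0604 for F10. Thinning gave -0.29 for F2 and 0 for F5. For FFA averaged over culture, edgeR gave -0.0368 for FGA and -0.35 for FGG, median-ratio scaling and DESeq2 -0.16 each for FGG, and thinning 1.38 for F5. For co-culture averaged over treatment, FGA was -0.12 with median-ratio scaling, -0.14 with edgeR and -0.13 with DESeq2. The cause of these turns was not tested.

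Leaving out 1 library at a time gave 0 to 4 of the 10 for FFA in co-culture, 0 to 2 for co-culture with FFA and 0 to 1 for FFA averaged over culture and the F-test in HepG2, all from leaving out co-culture FFA replicate 1, where 18%, 17.6%, 11.9% and 9.77% of all genes passed in that order. In Caco-2 it gave 0 to 1 for co-culture without FFA, FFA averaged, co-culture averaged and the F-test, all from mono-culture control replicate 1 (3.94%, 4.35%, 4.97% and 5.2% of all genes). Other listed genes ranged from 0 to 16 in HepG2 (16 without co-culture FFA replicate 1) and 0 to 3 in Caco-2 (3 without co-culture control replicate 2). FGA for co-culture averaged over treatment ranged from -0.041 to 0.1785. With both HepG2 co-culture FFA libraries out, 10 of the 10 passed the averaged line contrast and 0 passed FFA in mono-culture or co-culture without FFA in HepG2, and FFA in co-culture has no value. With the markers of each line that the other line also expresses dropped, the median level was 1095 CPM for the HepG2 list, of which TF alone is left, and 63.8 CPM for the sum of the 9 left of the Caco-2 list. With the replicate number as a block, 10 of the 10 passed the averaged line contrast and 0 any comparison within a line, and no call changed. No share of all genes stands beside the counts with both libraries out or with the block. The libraries were taken to share only a number: deviations from group means correlated on average by 0.00332 in HepG2 and 0.0120 in Caco-2 over all genes, and over genes of at least 100 CPM by 0.0529 (-0.103 to 0.121) and 0.151 (-0.0172 to 0.291). In Caco-2, replicate 1 lay above replicate 2 in all 4 groups for FGG, FGB and F2. No share of all genes with this order stands beside it, and whether libraries of the same number share an experiment was not tested. Depth limits PLG and F5 in HepG2 and FGA, SERPINC1, SERPIND1 and PROC in Caco-2, each with 3 reads or fewer in some libraries.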
